A study of Homo sapiens with 12 samples.

Results

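The heat shock proteins and their DNAJ partners were described in MiaPaca2 cells, an established human pancreatic cancer cell line. Members were the GENCODE protein-coding genes whose symbols name an HSPA, HSPB, HSP90 or DNAJA, DNAJB or DNAJC gene, or HSPD1, HSPE1 or HSPH1. This rule gave 71 genes out of 63677 identifiers in the count tables, of which 19322 are GENCODE v44 protein-coding genes. RNA-seq libraries were made from 4 groups of wild-type MiaPaca2 cells after 24 h of treatment, with 3 libraries in each group. Con received DMSO. CPT received calcipotriol, a Vitamin D analogue, at 1 µM. GTA+5-Aza received glyceryl triacetate (GTA), an acetate donor for histone acetylation, at 2 mM together with the DNA methyltransferase inhibitor 5-Aza at 1 µM. CPT+GTA+5-Aza received all 3 agents at these doses. Cells with GTA and 5-Aza are called primed and the others unprimed. No group received GTA or 5-Aza alone, so their effects cannot be told apart. The labels number the libraries of a group, and the study's methods speak of independent samples without saying that these were separate cultures, so p-values measure the spread between these libraries, which may be technical.

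Heat shock proteins are molecular chaperones that bind unfolded proteins, keep them from aggregating and help them to fold. HSP70 proteins take up and release their clients in cycles of ATP hydrolysis. DNAJ proteins bring clients to HSP70 and stimulate the hydrolysis, and HSP110 proteins exchange the nucleotide. HSP90 acts later on kinases, steroid receptors and other clients, the chaperonin made of HSPD1 and HSPE1 folds proteins inside mitochondria, and small heat shock proteins hold unfolded proteins without ATP. Heat shock factor 1 (HSF1) induces many of these genes when unfolded proteins accumulate, and the unfolded protein response induces those of the endoplasmic reticulum. Tumor cells, including pancreatic ones, commonly keep chaperones at high levels.

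Total counts ran from 16162490 to 21224665 per library, and 67 of the 71 members had a count in at least 1 library. Of these, 61 members passed edgeR's filter on low counts and were tested among 17123 genes. The keratin and epithelial markers KRT8, KRT18, KRT19 and KRT7 passed the filter, whereas EPCAM and CDH1 were at or near 0. These 4 keratins were all called higher in primed cells, and the 6 epithelial markers summed to 2082 to 2536 CPM in unprimed and 2443 to 2625 CPM in primed libraries. The mesenchymal marker VIM was called lower (log2 fold change -0.18), with 6071 to 6593 CPM in unprimed and 5308 to 5731 CPM in primed libraries, without overlap. Of 5 fibroblast markers, 3 (COL1A1, COL1A2 and COL3A1) passed the filter and all 3 were higher in primed cells. The summed level of the 5 was 780 to 932 CPM in unprimed and 916 to 1069 CPM in primed libraries, with the defining markers DCN and LUM at or near 0. Immune and endothelial markers summed to at most 1.74 CPM and 0.624 CPM. What part these markers have in the results was not tested. CPM values here are counts set to a common library size with edgeR's TMM scaling, and fewer cells of a type cannot be told apart from less RNA per cell.

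The promoters of a few members are shown first, because they carry the sequences through which heat shock factors and the unfolded protein response are known to act. RefSeq promoter windows of 300 bases (GRCh38.p14, from 250 bases before the start to 50 after it) were matched for 64 of the 71 members. A heat shock element of 3 units on either strand, read as GAA, TTC and GAA with 2 free bases between neighbours, was present in the windows of 4 members (6.25%), compared with 0.366% of protein-coding and 0.487% of all promoters of the same length. HSPA8, the constitutive cytosolic HSP70, had it at 230 and at 55 bases before the start (chr11:123062087-123062386, minus strand). HSPA6, a strictly stress-inducible HSP70, had it 74 bases before the start (chr1:161524290-161524589, plus strand), and DNAJB6, which suppresses aggregation, had it 131 bases before the start (chr7:157336754-157337053, plus strand). Capitals mark the element in these windows.
HSPA8: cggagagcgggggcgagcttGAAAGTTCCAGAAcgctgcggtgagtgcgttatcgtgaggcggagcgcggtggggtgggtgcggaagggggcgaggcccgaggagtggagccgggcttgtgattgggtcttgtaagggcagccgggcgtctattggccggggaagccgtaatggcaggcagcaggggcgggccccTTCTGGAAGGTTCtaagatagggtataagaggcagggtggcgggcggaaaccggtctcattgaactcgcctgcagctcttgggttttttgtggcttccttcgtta
HSPA6: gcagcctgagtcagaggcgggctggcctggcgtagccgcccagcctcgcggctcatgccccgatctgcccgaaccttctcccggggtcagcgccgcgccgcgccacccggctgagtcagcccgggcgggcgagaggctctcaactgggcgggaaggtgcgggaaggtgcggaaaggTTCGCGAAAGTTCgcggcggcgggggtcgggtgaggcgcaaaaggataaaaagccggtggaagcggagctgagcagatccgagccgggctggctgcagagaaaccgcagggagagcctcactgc
DNAJB6: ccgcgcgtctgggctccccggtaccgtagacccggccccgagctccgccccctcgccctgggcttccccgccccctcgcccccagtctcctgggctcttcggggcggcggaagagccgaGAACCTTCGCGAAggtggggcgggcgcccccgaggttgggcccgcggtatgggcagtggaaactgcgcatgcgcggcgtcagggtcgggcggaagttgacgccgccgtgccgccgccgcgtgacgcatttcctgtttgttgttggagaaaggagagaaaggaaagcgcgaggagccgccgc

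The other match was in DNAJA1, inside the transcribed part of the window. The 3-unit form was absent from the windows of the other members listed as heat-inducible, among them HSPA1A, HSPA1B, DNAJB1, HSPH1, HSPB1, HSPD1, HSPE1, HSP90AA1 and HSP90AB1. A single window per gene was searched, so other starts of the same gene were not covered. The HSP90AA1 window (chr14:102139700-102139999) lay wholly outside its GENCODE gene (chr14:102080742-102139699). Near matches, with even a letter changed, were not counted. The shorter form of 2 such units (GAA then TTC, or TTC then GAA), which every 3-unit element contains, was present in 14 of the 64 members (21.9%) and in 11.4% of protein-coding promoters. The endoplasmic reticulum stress element on either strand, read as CCAAT, 9 free bases and CCACG, was present in 2 members (3.13%) and in 0.12% of protein-coding promoters. These were HSPA5 (BiP, chr9:125241294-125241593, minus strand) and HSP90B1 (GRP94, chr12:103930160-103930459, plus strand), the main HSP70 and HSP90 of the endoplasmic reticulum, with the element in capitals.
HSPA5: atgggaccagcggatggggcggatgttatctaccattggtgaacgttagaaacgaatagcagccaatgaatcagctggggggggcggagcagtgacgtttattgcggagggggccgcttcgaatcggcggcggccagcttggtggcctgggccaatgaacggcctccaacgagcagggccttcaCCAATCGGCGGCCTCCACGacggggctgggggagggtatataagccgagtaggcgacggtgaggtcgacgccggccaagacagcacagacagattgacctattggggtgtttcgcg
HSP90B1: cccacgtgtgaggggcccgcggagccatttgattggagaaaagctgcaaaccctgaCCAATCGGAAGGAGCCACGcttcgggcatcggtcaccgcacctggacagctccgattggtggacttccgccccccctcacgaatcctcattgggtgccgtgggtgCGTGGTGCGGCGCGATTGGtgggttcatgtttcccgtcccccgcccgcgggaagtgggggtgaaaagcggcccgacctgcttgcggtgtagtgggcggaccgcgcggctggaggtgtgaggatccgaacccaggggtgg

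HSPA2, the testis-rich HSP70, is shown with its CpG dinucleotides in capitals, because they are the sites that DNA methyltransferases modify (chr14:64540491-64540790, plus strand).
HSPA2: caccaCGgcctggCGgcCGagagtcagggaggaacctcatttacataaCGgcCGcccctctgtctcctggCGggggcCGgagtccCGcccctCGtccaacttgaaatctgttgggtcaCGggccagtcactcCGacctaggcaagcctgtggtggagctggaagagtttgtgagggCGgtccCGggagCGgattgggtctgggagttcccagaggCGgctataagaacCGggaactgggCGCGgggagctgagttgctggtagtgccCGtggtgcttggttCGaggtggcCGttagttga

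This window held 21 CpG dinucleotides, compared with medians of 23.5 over the members, 22 over protein-coding promoters and 14 over all promoters. The median was 26.5 in the 20 members with a window that were lower in primed cells and 21 in the 9 that were higher. DNA methylation and factor binding were not measured in these libraries, and a match of letters is not a binding site.

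The members took 1.83% to 1.98% of all counts in the 6 unprimed libraries (median 1.93%) and 1.59% to 1.72% in the 6 primed libraries (median 1.69%). Every primed library was below every unprimed one. HSP90AA1 and HSP90AB1, the cytosolic HSP90 genes, made up 43.0% to 45.5% of the counts of the members, and with HSPA8 and HSPD1 they made up 63.3% to 67.3%. The share of the other 69 genes without the HSP90 pair was 1.02% to 1.08% in unprimed and 0.903% to 0.974% in primed libraries, again without overlap.

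**Figure D1:**
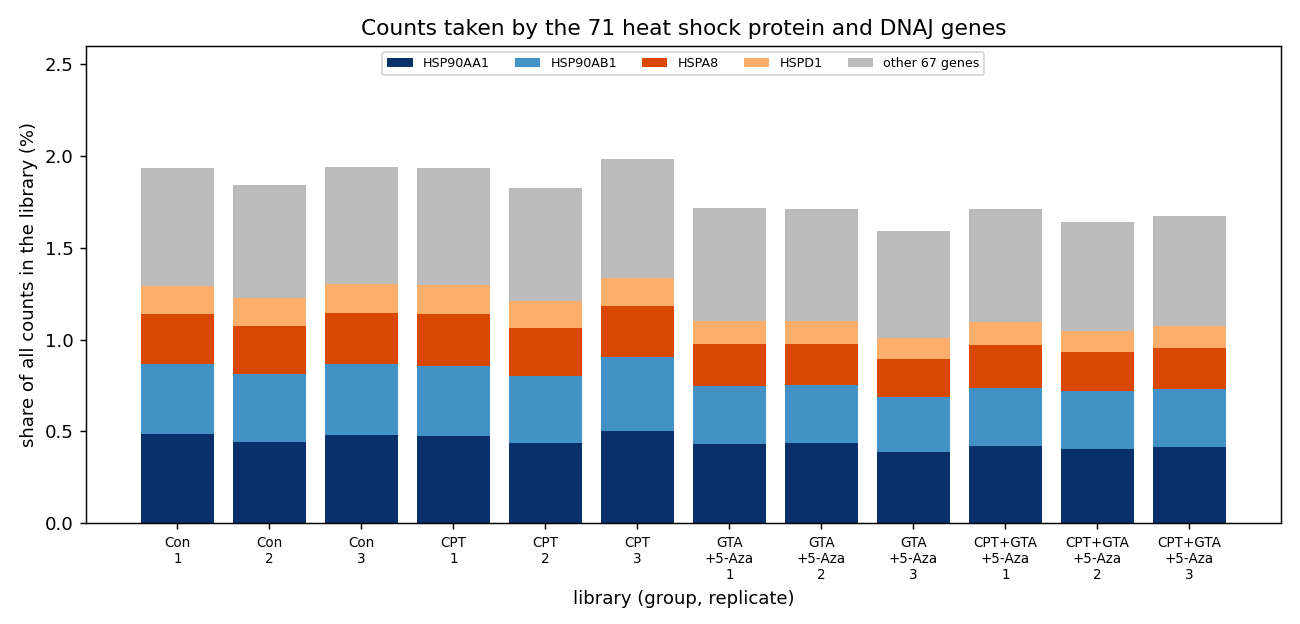
Share of all counts in each of the 12 libraries (vertical axis, percent, starting at 0) taken by HSP90AA1, HSP90AB1, HSPA8, HSPD1 and the other 67 genes, as stacked bars. The 6 unprimed libraries reach 1.83% to 1.98% and the 6 primed libraries 1.59% to 1.72%.

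Levels between genes were compared per kilobase of merged exon. On this scale HSP90AB1 had the highest mean over the 12 libraries, 1169 CPM per kb, followed by HSP90AA1 at 871 and HSPA8 at 509. HSPB1 (HSP27), the one small heat shock protein gene that was tested, had 329.6 CPM per kb and HSPD1 had 181. HSPA4, an HSP110 exchange factor, had 98.8, the HSP70 partner DNAJA1 had 92.8 and HSPA5 had 88.9 CPM per kb. With the length of the canonical transcript in place of the merged exons, HSP90AA1 came before HSP90AB1, so their order depends on the transcript counted, and 6 of these 8 genes remained among the first 8. The inducible genes HSPA1A and HSPA1B were at 16.8 and 8.70 CPM per kb. Their coding sequences are nearly identical, and how the counting treated reads that match both is not given. Their levels and changes are therefore uncertain, and the levels may be too low.

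Priming was then compared over all 12 libraries, as the mean of GTA+5-Aza and CPT+GTA+5-Aza against the mean of Con and CPT. Among the 61 members tested, 22 were lower and 10 were higher in primed cells. A member was called when its p from the quasi-likelihood test of edgeR was below 0.05 once adjusted by Benjamini-Hochberg across all 17123 genes. The share of members called lower was 36.1%, with a background of 14% of all genes tested, and the share called higher was 16.4%, with a background of 16.8%. The background differed by level. Of the 34 members with a mean log2 CPM above 5, 18 (52.9%) were lower and 3 (8.82%) higher, compared with 28.1% lower and 16% higher among the 6263 genes of that level. The median log2 fold change was -0.11 over the members and 0.01 over all genes tested.

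The falls were small and the rises reached larger sizes. The 22 lower members fell by 8.76% to 28.1%, with a median of 16.8%, and the 10 higher ones rose by 7.68% to 228%. When a change of more than 1.5-fold was asked for together with P below 0.05 before adjustment, 3 members were higher (HSPA2, DNAJC18 and DNAJC22; background 7.81%) and 0 lower (background 1.79%). The primed libraries were all below the unprimed ones in 15 of the 61 members (24.6%, background 6.81%) and all above them in 6 (9.84%, background 8.04%).

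**Figure D2:**
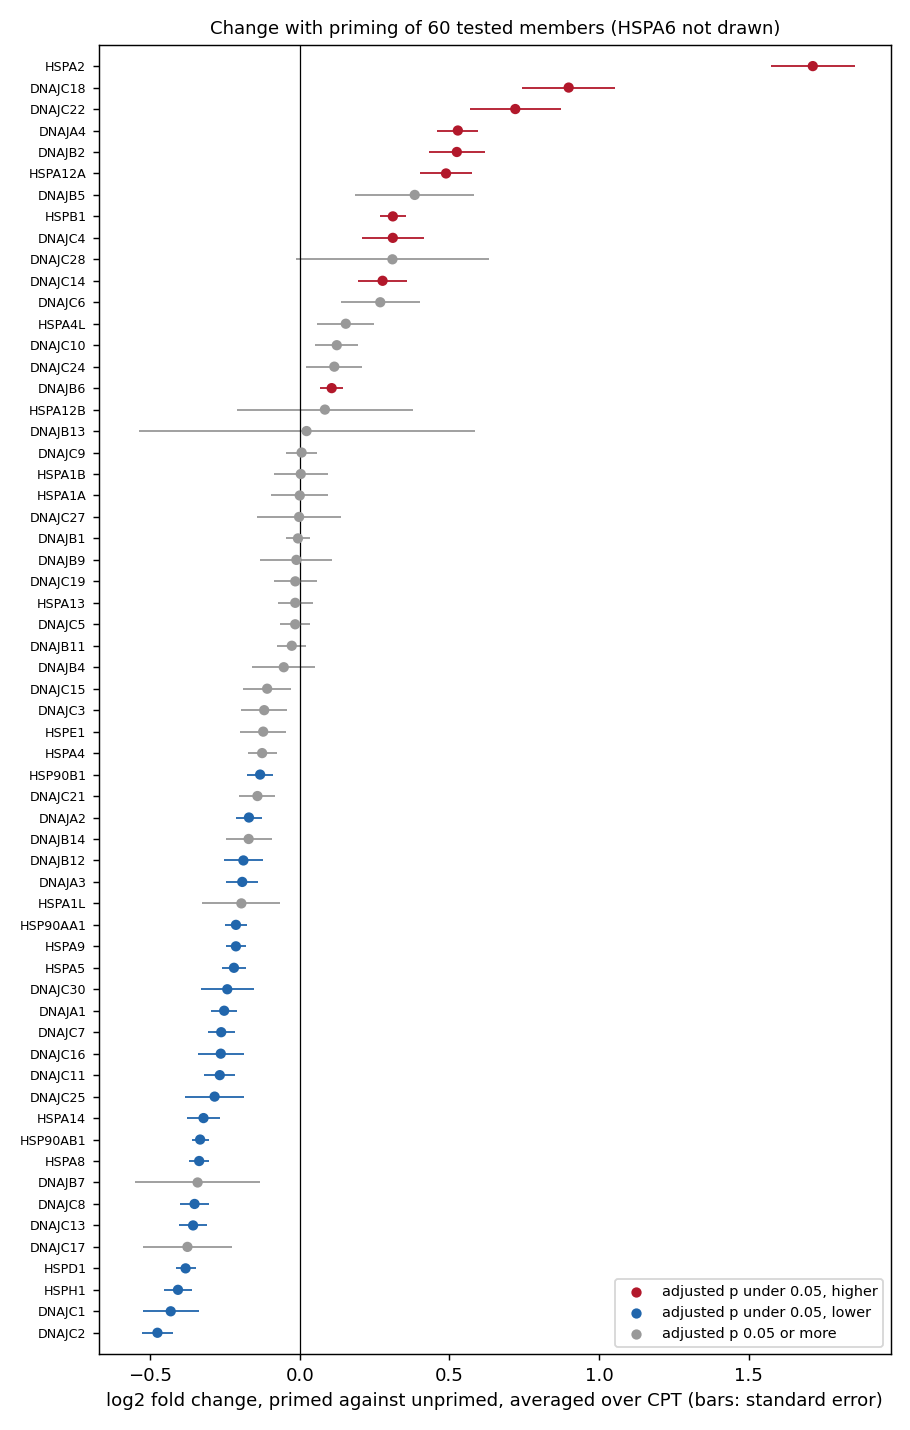
Log2 fold change of primed against unprimed cells, averaged over CPT (horizontal axis), for 60 of the 61 tested members, each on its own line with bars of 1 standard error. HSPA6 is not drawn. The 22 blue points were called lower and the 10 red points higher by edgeR, and HSPA2 lies farthest from 0 at 1.71.

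All 3 HSP90 genes were lower in primed cells (background 14% of all genes tested, and 28.1% at a mean log2 CPM above 5, where all 3 lay). HSP90AB1, the constitutive cytosolic HSP90 (ENSG00000096384, chr6:44246166-44253888, plus strand), was at 3914, 3745 and 3963 in Con, 3869.6, 3721 and 4097 in CPT, 3113, 3108 and 3002 in GTA+5-Aza and 3099.8, 3088 and 3099 in CPT+GTA+5-Aza, in CPM. The unprimed libraries lay between 3721 and 4097 CPM and the primed ones between 3002 and 3113 CPM, without overlap. HSP90AB1 fell by 20.6% (log2 fold change -0.33, standard error 0.03, adjusted p = 1.29e-09, edgeR). HSP90AA1, the stress-inducible cytosolic form (ENSG00000080824, chr14:102080742-102139699, minus strand), was at 4907, 4479 and 4865 in Con, 4845, 4397 and 5120.2 in CPT, 4239, 4326 and 3822 in GTA+5-Aza and 4152, 4011 and 4136 in CPT+GTA+5-Aza CPM. Its groups also did not overlap, but the highest primed library (4326 CPM) came close to the lowest unprimed one (4397 CPM), and the log2 fold change was -0.21 (standard error 0.04, adjusted p = 4.22e-05, edgeR). HSP90B1 was at 518 to 604 CPM in unprimed and 491 to 559 CPM in primed libraries, which overlapped. Its log2 fold change of -0.13 (adjusted p = 0.0239, edgeR) did not stay below 0.05 with library size alone as the scaling (-0.09, adjusted p = 0.12) or without any 1 of 6 libraries.

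Among the 12 HSP70 genes, 4 were lower and 2 higher (background 14% and 16.8% of all genes tested). Of the 6 with a mean log2 CPM above 5, 4 were lower and 0 higher (background 28.1% and 16% at that level). HSPA8 (ENSG00000109971, chr11:123057489-123063230, minus strand) was at 2716, 2658 and 2817 in Con, 2845, 2654 and 2845 in CPT, 2229.6, 2227 and 2013 in GTA+5-Aza and 2303, 2131 and 2198 in CPT+GTA+5-Aza CPM. All 6 primed libraries were below all 6 unprimed ones, and the level fell by 20.8% (log2 fold change -0.34, standard error 0.03, adjusted p = 1.22e-08, edgeR). HSPA9, the mitochondrial HSP70 mortalin (ENSG00000113013, chr5:138553756-138575675, minus strand), had 726, 719 and 766 in Con, 745, 712 and 743 in CPT, 670.2, 626 and 611 in GTA+5-Aza and 642, 624 and 633 in CPT+GTA+5-Aza CPM. The groups were apart, from 611 to 670.2 CPM in primed and from 712 to 766 CPM in unprimed cells, with a log2 fold change of -0.21 (adjusted p = 2.8e-05, edgeR). HSPA5, the HSP70 of the endoplasmic reticulum, fell from 625 ± 33.8 to 537 ± 19.9 CPM (mean ± SD, n = 6 libraries each, log2 fold change -0.22, adjusted p = 0.000111, edgeR) and its groups did not overlap. HSPA14, a ribosome-associated HSP70, fell from 89.4 ± 8.89 to 71.4 ± 2.86 CPM, and its counts are uncertain because it shares exons with MSANTD7.

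HSPA2 showed the largest rise among the members that were called in priming averaged over CPT (ENSG00000126803, chr14:64535905-64546173, plus strand). Its level was 5.10, 5.10 and 10.0 in Con, 6.21, 5.76 and 6.77 in CPT, 24.6, 23.1 and 20.9 in GTA+5-Aza and 21.9, 22.4 and 15.1 in CPT+GTA+5-Aza CPM. Every primed library was above every unprimed one, the lowest primed value being that of CPT+GTA+5-Aza replicate 3 and the highest unprimed value that of Con replicate 3. The log2 fold change was 1.71 (standard error 0.14, adjusted p = 5.99e-10, edgeR), a rise of 228%. HSPA12A, a distant HSP70 relative, rose from 18.1 ± 1.81 to 25.5 ± 2.17 CPM (log2 fold change 0.49). The classical heat shock readouts did not pass the test. HSPA1A had 32.3 to 47.6 CPM in unprimed and 34.4 to 48.4 CPM in primed libraries (log2 fold change 0.00, standard error 0.09, adjusted p = 0.999, edgeR), and HSPA1B had 18.9 to 23.4 and 19 to 26.2 CPM (log2 fold change 0.00, standard error 0.09). The signs of these estimates near 0 turned with the scaling.

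Of the 3 HSP110 genes 1 was lower (background 14% of all genes tested, and 28.1% at a mean log2 CPM above 5). HSPH1 (HSP105, ENSG00000120694, chr13:31134973-31162388, minus strand) was at 428, 383 and 419 in Con, 407, 357 and 423 in CPT, 321, 308 and 276 in GTA+5-Aza and 321, 298 and 299 in CPT+GTA+5-Aza CPM. Its 6 primed libraries, up to 321 CPM, lay below the lowest unprimed one at 357 CPM, and the log2 fold change was -0.41 (standard error 0.05, adjusted p = 1.86e-07, edgeR). HSPA4 had a difference of -0.13 on the log2 scale (standard error 0.05, adjusted p = 0.0509, edgeR), and its groups overlapped.

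Of the mitochondrial chaperonin pair, HSPD1 passed the test and HSPE1 did not. HSPD1 (HSP60, ENSG00000144381, chr2:197486584-197516737, minus strand) was at 1582, 1541 and 1585 in Con, 1611, 1480.2 and 1570.2 in CPT, 1232, 1234 and 1137 in GTA+5-Aza and 1235, 1149 and 1207 in CPT+GTA+5-Aza CPM. All primed libraries were below all unprimed ones, and the log2 fold change was -0.38 (standard error 0.03, adjusted p = 1.58e-09, edgeR). HSPE1 (HSP10), which is transcribed from the same promoter region in the opposite direction, had 67 ± 9.65 CPM in unprimed and 61.6 ± 4.12 CPM in primed cells (log2 fold change -0.12, standard error 0.08, adjusted p = 0.244, edgeR). Exons of HSPE1 overlap HSPD1 on the other strand and HSPE1-MOB4 on the same strand, so its counts are uncertain, and the difference between the 2 genes was not tested.

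Small heat shock proteins were represented by HSPB1 among the tested genes (ENSG00000106211, chr7:76302673-76304295, plus strand). It was higher in primed cells, with 488, 505 and 460.5 in Con, 445, 516 and 449 in CPT, 605, 564 and 656 in GTA+5-Aza and 569.6, 600.3 and 559 in CPT+GTA+5-Aza CPM. Primed libraries were all above unprimed ones, 559 to 656 against 445 to 516 CPM, and HSPB1 rose by 24.1% (log2 fold change 0.31, standard error 0.04, adjusted p = 3.67e-06, edgeR). The other 6 small heat shock protein genes (HSPB2, HSPB3, HSPB6, HSPB7, HSPB8 and HSPB9) did not pass the filter.

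**Figure D3:**
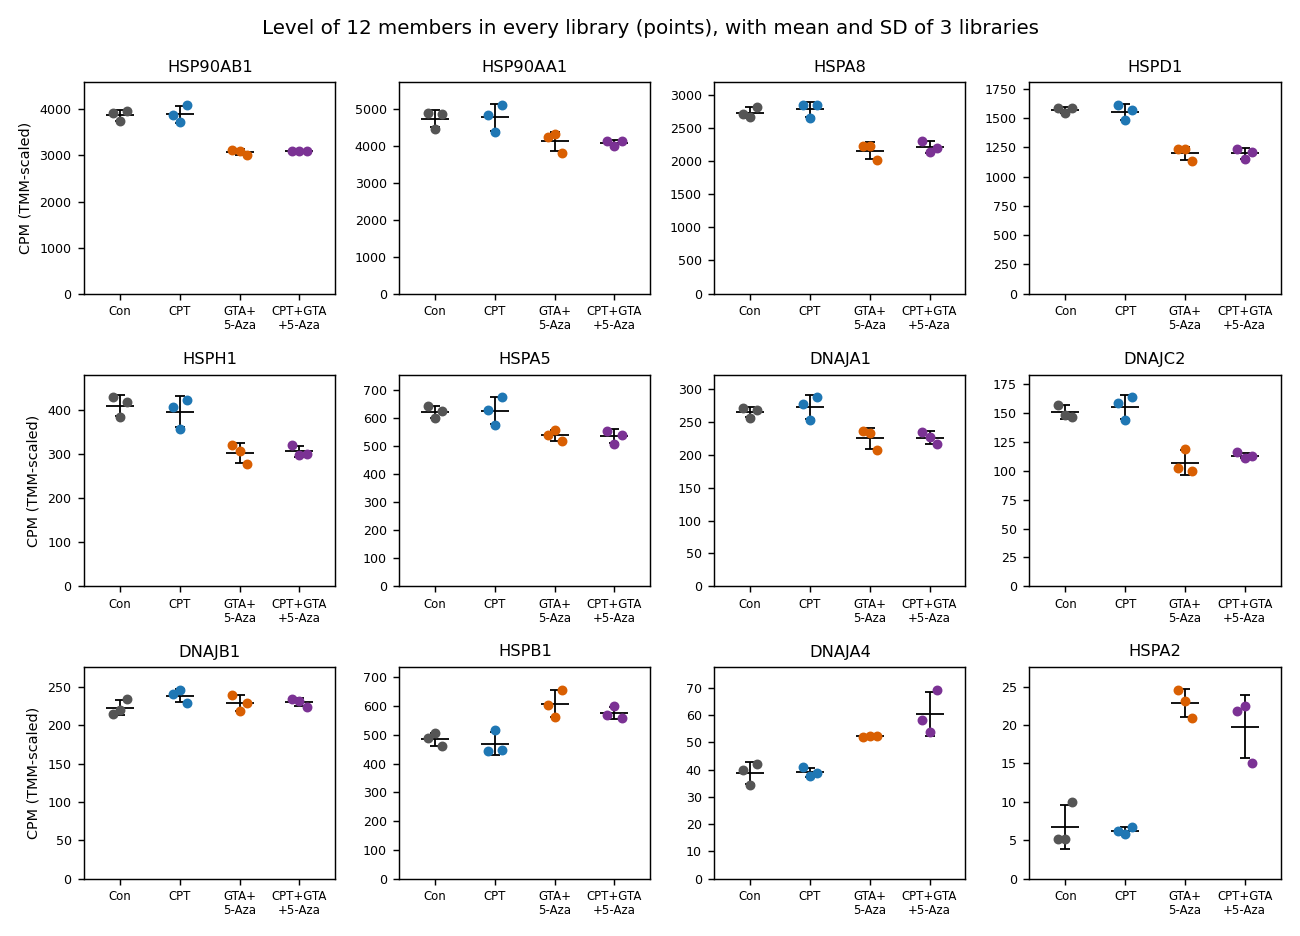
Level of 12 members in every library, in TMM-scaled CPM on axes that start at 0, with the mean and SD of the 3 libraries of each group as bars. HSP90AB1, HSPA8, HSPD1 and HSPH1 lie lower in both primed groups, DNAJB1 overlaps between all groups, and HSPB1, DNAJA4 and HSPA2 lie higher in both primed groups.

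All 4 DNAJA genes, the closest relatives of bacterial DnaJ, were called, 3 lower and 1 higher. All lay at a mean log2 CPM above 5, where the background was 28.1% lower and 16% higher. DNAJA1, the main cytosolic partner of HSPA8, fell from 269 ± 13 to 226 ± 11.9 CPM without overlap of the libraries (log2 fold change -0.25, adjusted p = 7.67e-05, edgeR). DNAJA2, also cytosolic, and DNAJA3, its mitochondrial counterpart, had log2 fold changes of -0.17 and -0.19. DNAJA4 went the other way (ENSG00000140403, chr15:78264086-78282196, plus strand), with 40.0, 34.4 and 41.9 in Con, 40.9, 37.7 and 38.6 in CPT, 51.9, 52.5 and 52.4 in GTA+5-Aza and 58.1, 53.7 and 69.2 in CPT+GTA+5-Aza CPM. Its highest library was CPT+GTA+5-Aza replicate 3 and its groups did not overlap (log2 fold change 0.53, standard error 0.07, adjusted p = 1.19e-06, edgeR). DNAJA4 overlaps antisense transcripts, and without a stated strand setting their reads cannot be told apart.

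Of the 11 tested DNAJB genes, 2 were higher and 1 lower (background 16.8% and 14% of all genes tested). DNAJB2, which is enriched in neurons and delivers clients for degradation, rose from 20.9 ± 3.0 to 30.0 ± 3.10 CPM (log2 fold change 0.52, adjusted p = 9.3e-05, edgeR). DNAJB6 rose by 7.68% and DNAJB12, a membrane protein of the endoplasmic reticulum, fell by 12.2%, and both calls were lost in 9 of the 19 alternatives. DNAJB1 (HSP40), the standard inducible partner of HSPA1A, was at 215, 219.8 and 234 in Con, 240.1, 246 and 229 in CPT, 239.6, 218 and 229 in GTA+5-Aza and 234, 232 and 224 in CPT+GTA+5-Aza CPM. All 4 groups overlapped, and the log2 fold change with priming was -0.01 (standard error 0.04, adjusted p = 0.934, edgeR), turning to 0.0345 with library size alone. Exons of DNAJB1 overlap TECR on the other strand.

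DNAJC genes, the most varied class, gave 9 lower and 4 higher members among 25 tested (background 14% and 16.8% of all genes tested). Of the 11 with a mean log2 CPM above 5, 5 were lower and 0 higher (background 28.1% and 16% at that level). DNAJC2, a ribosome-associated partner of HSPA14 (ENSG00000105821, chr7:103312289-103344830, minus strand), had 157, 149 and 146 in Con, 159, 144 and 164 in CPT, 103, 119 and 99.5 in GTA+5-Aza and 116, 111 and 113 in CPT+GTA+5-Aza CPM. The groups did not overlap, and DNAJC2 fell by 28.1% (log2 fold change -0.48, standard error 0.05, adjusted p = 5.35e-08, edgeR). Its exons overlap PMPCB on the other strand. DNAJC13, which acts in endosomal trafficking (ENSG00000138246, chr3:132417502-132539032, plus strand), was at 227, 209.7 and 219 in Con, 204, 197 and 241 in CPT, 167, 177 and 171 in GTA+5-Aza and 169, 165 and 164 in CPT+GTA+5-Aza CPM, with the primed libraries in a narrow range of 164 to 177 CPM below all unprimed ones (log2 fold change -0.36, adjusted p = 1.62e-06, edgeR). DNAJC8, a splicing-associated protein (ENSG00000126698, chr1:28199456-28233029, minus strand), was at 117, 111 and 122 in Con, 125, 121 and 117 in CPT, 94.4, 99.4 and 93.7 in GTA+5-Aza and 91.2, 85.2 and 95 in CPT+GTA+5-Aza CPM, again without overlap (log2 fold change -0.35, adjusted p = 2.29e-06, edgeR).

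The other lower DNAJC genes were DNAJC1 of the endoplasmic reticulum (-0.43 on the log2 scale), DNAJC7, a partner of both HSP70 and HSP90 (-0.26), DNAJC11 of the mitochondrial cristae machinery (-0.27), DNAJC16 (-0.26), DNAJC25 (-0.28) and mitochondrial DNAJC30 (-0.24). The higher ones were of low level. DNAJC18 rose from 3.79 ± 0.859 to 7.06 ± 0.378 CPM (log2 fold change 0.90, adjusted p = 6.17e-05, edgeR) and DNAJC22 from 3.85 ± 0.866 to 6.31 ± 1.01 CPM (log2 fold change 0.72). DNAJC14 had a log2 fold change of 0.28 and DNAJC4 of 0.31, and DNAJC4 shares exons with NUDT22. The calls of DNAJC25 and DNAJC30 were lost with library size alone, with no filter on low counts and without any 1 of 6 and 7 libraries, and that of DNAJC4 without any 1 of 4 libraries.

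Members were also grouped by what is known of their induction and place. The 16 listed as heat-inducible had 6 lower (HSPA8, HSP90AA1, HSP90AB1, HSPD1, HSPH1 and DNAJA1), 2 higher (HSPB1 and DNAJB6) and a median log2 fold change of -0.09. The background over all genes tested was 14% lower and 16.8% higher. This list includes the constitutive forms HSPA8 and HSP90AB1, and its standard inducible readouts HSPA1A, HSPA1B and DNAJB1 were not called. Of the 10 mitochondrial members 6 were called, 5 lower (HSPD1, HSPA9, DNAJA3, DNAJC11 and DNAJC30) and DNAJC4 higher, with a median of -0.16. In the endoplasmic reticulum 4 of 10 members were lower (HSPA5, HSP90B1, DNAJB12 and DNAJC1) and 0 higher, with a median of -0.13, while P before adjustment was below 0.05 for 5 lower and 0 higher members (background 18.8% and 21.3% of all genes). At a mean log2 CPM above 5, 28.1% of all genes were lower and 16% higher. Above that level were 12 heat-inducible members (6 lower, 2 higher), 6 mitochondrial (4 lower, 0 higher) and 8 of the endoplasmic reticulum (3 lower, 0 higher). Of the 13 tissue-restricted genes listed, 4 were tested and HSPA2 was the 1 called.

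Genes around the chaperones were counted in the same fit. HSF1, which drives the heat shock response, had a difference of -0.06 on the log2 scale (standard error 0.06, adjusted p = 0.439, edgeR). HSF2, a related factor, was lower at -0.28 (adjusted p = 0.0214, edgeR) and HSF4 was higher at 0.44 (adjusted p = 0.0193, edgeR), while HSF5 had 0 CPM in all groups. Among 28 co-chaperones of HSP70 and HSP90, 7 were lower and 3 higher with a median of -0.07. All 10 were among the 25 co-chaperones with a mean log2 CPM above 5, a level at which 28.1% of all genes were lower and 16% higher. Among those lower were CHORDC1, an HSP90 partner (-0.23), GAK, which uncoats clathrin vesicles with HSPA8 (-0.30), and AHSA1, the activator of the HSP90 ATPase (-0.23).

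The cytosolic chaperonin TRiC and its prefoldin partner, which fold actin and tubulin, had 7 of 14 genes lower and 0 higher (9 lower and 0 higher with P below 0.05 before adjustment, background 18.8% and 21.3%), with a median of -0.16. All 7 were TRiC subunits and among the 13 genes of the list with a mean log2 CPM above 5 (background 28.1% lower at that level), and the 4 with the smallest P were CCT5 (-0.29, adjusted p = 2.11e-07, edgeR), CCT2 (-0.26), CCT3 (-0.22) and CCT8 (-0.24). Mitochondrial import and folding genes gave 4 of 10 lower and 0 higher (5 lower and 0 higher before adjustment), and the 4 were among the 7 above that level. These were CLPX, a mitochondrial unfoldase (-0.40), GRPEL1, the exchange factor of HSPA9 (-0.30), TRAP1, the mitochondrial HSP90 (-0.18), and the protease LONP1 (-0.19). The 20 endoplasmic reticulum stress and folding genes gave 3 higher and 2 lower, with a median of -0.02. That was 25% called, compared with 30.9% of all genes tested (16.8% higher and 14% lower). CANX, the lectin chaperone calnexin, was lower (-0.29), and its soluble relative CALR (0.13), EDEM1 (0.25) and MANF (0.30) were higher.

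Priming was also compared without and with CPT, setting GTA+5-Aza beside Con, and CPT+GTA+5-Aza beside CPT. These comparisons contrast different libraries, but both came from the single fit of 12 libraries and share its filter, scaling and estimate of spread. Without CPT 16 members were called lower (background 7.53%) and 8 higher (background 9.95%). HSPA6 is among these 8, and it passed the filter through the GTA+5-Aza libraries alone, the group in which it was highest. With CPT 16 were called lower (background 7.39%) and 7 higher (background 9.57%). Of these, 21 members were called in both, 14 lower and 7 higher. The share of all genes called in both was not counted. It cannot exceed the smaller single share in each direction (7.39% lower, 9.57% higher). Both comparisons gave HSP90AB1 a log2 fold change of -0.33, and HSPD1 had -0.39 without and -0.38 with CPT. HSPA2 had 1.76 and 1.67. Called without CPT alone were DNAJC1, DNAJA3 and HSPA6, and with CPT alone DNAJA2 and DNAJC16. HSPA6 is described with CPT, and for the other 4 the difference between the comparisons (the interaction of priming with CPT) had an adjusted p of 1 in edgeR's test. The calls of DNAJA3, DNAJA2 and DNAJC16 in these single comparisons were lost in 6, 8 and 11 of 20 alternatives.

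**Figure D4:**
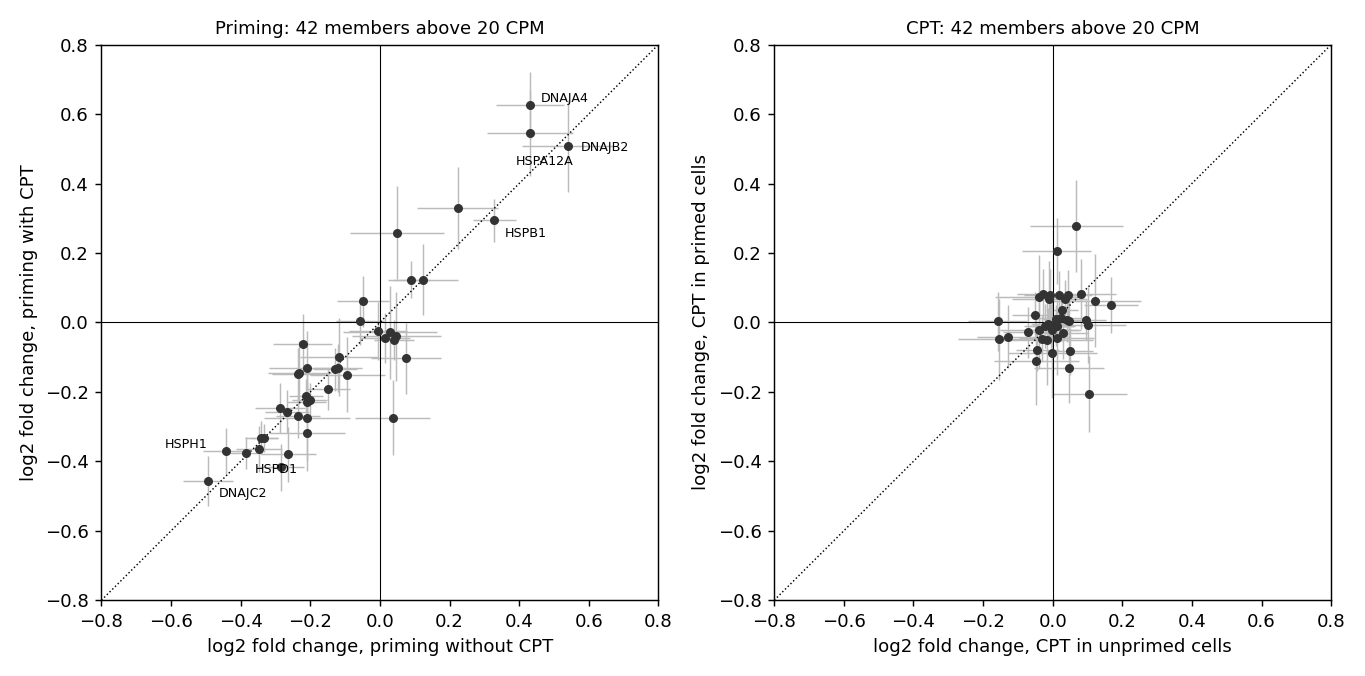
Log2 fold changes of the 42 members above 20 CPM with bars of 1 standard error, for priming without (horizontal) and with CPT (vertical) on the left, and for CPT in unprimed (horizontal) and primed cells (vertical) on the right, on equal axes with a dotted line of equality. The left points run from DNAJC2 at -0.49 and -0.46 to DNAJA4 at 0.43 and 0.63, and the right points lie between -0.21 and 0.28.

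Under CPT 0 members were called in unprimed cells, 0 in primed cells and 0 in the interaction, by edgeR, where the background was 0% of all genes each time. Before adjustment P was below 0.05 for 3, 3 and 2 members of 61, with backgrounds of 4.28%, 2.71% and 2.63% of all genes. DESeq2 also called 0 members in these 3 comparisons. For the 42 members above 20 CPM the log2 fold changes of CPT lay between -0.16 and 0.17 in unprimed and between -0.21 and 0.28 in primed cells. In unprimed cells the members with the smallest P were HSPA6, DNAJC24, a diphthamide synthesis factor (log2 fold change 0.29, standard error 0.13), and HSPA14 (0.17, standard error 0.08). In primed cells they were HSPA6, DNAJA4 (0.21, standard error 0.10) and the HSP110 gene HSPA4L (0.28, standard error 0.13). In the interaction they were HSPA6, the endothelial-type HSPA12B (-1.30, standard error 0.59) and DNAJC3, an inhibitor of the kinase PERK (-0.31, standard error 0.15).

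The means of 20 of the 61 tested members moved in opposite directions under CPT in unprimed and primed cells, and HSPA6 was the 1 of them whose libraries did not overlap in either comparison, at very low counts (ENSG00000173110, chr1:161524540-161526894, plus strand). It had 1, 0 and 0 counts in Con, 4, 6 and 9 in CPT, 14, 13 and 12 in GTA+5-Aza and 1, 1 and 2 in CPT+GTA+5-Aza. In CPM this was 0.0526, 0 and 0 in Con, 0.220, 0.295 and 0.491 in CPT, 0.748, 0.651 and 0.677 in GTA+5-Aza and 0.0528, 0.0568 and 0.122 in CPT+GTA+5-Aza. The 3 GTA+5-Aza libraries were highest, the 3 CPT libraries came next, and Con and CPT+GTA+5-Aza lay at the bottom. Pooled over the 3 libraries, CPT had 20.2 times the level of Con (95% exact interval 3.21 to 839.8), and GTA+5-Aza had 43.1 times that of Con (7.29 to 1744) and 9.16 times that of CPT+GTA+5-Aza (3.30 to 35.3). These intervals cover counting error only, and Con held 1 count. HSPA6 passed the filter on low counts through the GTA+5-Aza libraries alone, the group in which it was highest, so its tests depend on that choice and are given as a description. In edgeR's quasi-likelihood test the adjusted p was 0.00162 for GTA+5-Aza against Con, 0.961 for CPT against Con and 0.54 for the interaction, whose unadjusted P was 4.38e-05. The likelihood ratio test of edgeR, which takes the dispersion as known, gave an adjusted p of 0.000451 for the interaction. With all genes of at least 1 count kept, edgeR's quasi-likelihood test gave HSPA6 an adjusted p of 0.00448 for GTA+5-Aza against Con and 0.18 for the interaction. A closely related pseudogene, HSPA7, lies nearby, so the assignment of reads to HSPA6 is uncertain.

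The 10 members that were not tested were DNAJB8, DNAJC12, DNAJC5B, DNAJC5G, HSPB2, HSPB3, HSPB6, HSPB7, HSPB8 and HSPB9. HSPB2, HSPB3, HSPB7 and HSPB9 had 0 counts in all 12 libraries, which allows up to 3 counts, or 0.143 to 0.184 CPM, in each library. DNAJB8 had 1 count in all, and HSPB6 reached at most 10 counts in a library.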

How the data were processed

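RNA-seq was measured in 12 MiaPaca2 libraries, 3 in each of 4 groups taken from the sample labels. Per the submitters' processing notes and the study's methods, paired-end reads were trimmed (Trim Galore), aligned to GRCh38 by HISAT2 2.2.1 and assigned to genes by HTSeq. What the authors deposited are the resulting raw counts, which were not normalized. The annotation release and the strand setting of the counting are not given in the sources used here, so antisense and overlapping genes are uncertain. Called members that this also covers include HSP90AA1 (WDR20) and HSPA12A (ENO4) on the other strand, and DNAJC25 (DNAJC25-GNG10) on the same strand. Symbols, gene types and coordinates came from GENCODE v44 on GRCh38, and promoter windows from RefSeq (GRCh38.p14).

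Tests used edgeR 4.0.16 under R 4.3.3, with filterByExpr by group, TMM scaling and a single quasi-likelihood fit of the 12 libraries (common dispersion 0.0101). P-values were adjusted by Benjamini-Hochberg across 17123 genes. The alternatives were DESeq2 1.42.0, edgeR's likelihood ratio test, RLE scaling or library size alone, a filter of 1 count in any library or a mean count of at least 10, a fit of just the groups compared, the replicate block, and each library left out in turn. On simulated counts of 17123 genes for priming averaged over CPT, the test gave the right sign for 98.7% of the changed genes, called or not. Of the calls, 4.83% fell on unchanged genes, and 34.6%, 64.2% and 76.8% of genes changed 1.2-, 1.5- and 2-fold were called. The simulation changed a small part of the genes, of all levels, whereas 30.9% of all genes tested were called in the data. These shares therefore need not hold for this comparison or for the members. Replicates of a group differed beyond sampling noise, with 3.88 to 16.6 of chi-square per degree of freedom. A count of 0 allows up to 3 counts, and this limit and the ratio intervals cover counting error only. All rows name a gene.

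The members, gene lists and tests were chosen with earlier results of these data known. Named genes are the members called in any comparison (values per library for the 12 with the smallest P in priming averaged over CPT), the 8 with the highest level per kb, the 3 with the smallest P in each CPT comparison and the interaction, HSPA1A, HSPA1B, DNAJB1, HSPA5, HSP90B1, HSF1 and HSF2, the members not tested, and at most 4 called genes from each list of other genes. No set test was run.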

Additional observations from a re-analysis of the deposited data

Results flagged for a closer look

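HSPA6, the strictly inducible HSP70 gene, stood out because the groups lay in opposite order under CPT in unprimed and primed cells. All 3 CPT libraries were above the 3 Con libraries, and all 3 CPT+GTA+5-Aza libraries were below the 3 GTA+5-Aza libraries. By edgeR, the interaction had an unadjusted P of 4.38e-05, with a log2 difference of -6.96 (standard error 1.42), and the adjusted p over all genes was 0.54. The difference therefore did not pass the correction. HSPA6 entered the test through the GTA+5-Aza libraries alone, the group in which it was highest, so the P is a description. Without that filter edgeR's adjusted p of the interaction was 0.18. The largest value was 14 counts in a library, and Con held 1 count in all. Adjusted p-values over the alternatives ran from 0.000451, in the likelihood ratio test, to 1. What lies behind this order was not tested.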

How the results depend on the processing

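In priming averaged over CPT, 18 of the 22 lower and 8 of the 10 higher members kept their call in every alternative run. In the single comparisons fewer were kept, 4 of 8 higher and 11 of 16 lower members without CPT, and 5 of 7 higher and 11 of 16 lower with CPT. The 4 include HSPA6, which entered the test through the GTA+5-Aza libraries alone. The calls of DNAJC22 without CPT and DNAJC11 with CPT were lost in 5 of 20 alternatives each. Averaged over CPT, the calls of DNAJB12, DNAJC25, DNAJC30, HSP90B1, DNAJB6 and DNAJC4 were not kept, and the cause was not tested. Leaving out 1 library lost HSP90B1 for Con replicates 1 and 3, GTA+5-Aza replicates 1 and 3 and CPT+GTA+5-Aza replicates 2 and 3 (highest adjusted p = 0.0791, edgeR). DNAJC4 was lost for Con replicates 1 and 3, GTA+5-Aza replicate 3 and CPT+GTA+5-Aza replicate 3 (0.0956). DNAJB12, DNAJB6, DNAJC25 and DNAJC30 were lost for 7, 8, 6 and 7 of the 12 libraries, with highest adjusted p-values of 0.0694, 0.102, 0.083 and 0.111 in edgeR's test. Leaving out each library in turn gave 8 to 11 higher and 18 to 23 lower members averaged over CPT, 5 to 8 higher and 12 to 18 lower without CPT, and 6 to 8 higher and 11 to 19 lower with CPT. The 5 came from leaving out Con replicate 3.

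Scaling by library size alone gave 10 higher and 18 lower members, and moved the split over all genes from 2879 higher and 2404 lower to 3366 and 1784. In the interaction the likelihood ratio test called 1 member lower, HSPA6. With the replicate number as a block there were 10 higher and 23 lower members averaged over CPT, 8 and 16 without CPT and 7 and 16 with CPT, and 0 for CPT. Libraries of the same number correlated between -0.08 and 0.12 over 18 pairs in their deviations from the group means. These weak correlations show no pairing by number but cannot exclude it, and the labels do not say. Estimates near 0 changed sign. DNAJB1 had 0.0345 with library size alone and ranged from -0.0242 to 0.0112 with each library left out. HSPA1A had -0.00605 with DESeq2, -0.00622 with RLE scaling and -0.00658 with the replicate block, and ranged from -0.0825 to 0.0515 with each library left out, and HSPA1B had -0.00300 with DESeq2 and RLE scaling and ranged from -0.0563 to 0.0421. Depth limits HSPA6, DNAJB13 and the 10 untested members most.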
